A study of Mus musculus with 32 samples.

Results

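The cerebellar vermis, the midline strip of the cerebellum, was compared between young adult wild-type C57BL/6J mice exposed to ethanol before birth and wild-type mice exposed to saline. The members were the 8 columns of the deposited gene count table labelled as wild-type vermis, 4 from ethanol-exposed mice (cPAE) and 4 from saline-exposed mice (cPSE), of 32 libraries in the whole series. Each group held 2 females, F1 and F3, and 2 males, M1 and M3. Dams spent 5 nights with a stud and then received 1 intraperitoneal injection a day until birth, of ethanol at 3 g/kg (20% by volume in saline) for cPAE or of saline for cPSE. The pups were weaned at postnatal day 21 and killed between days 40 and 50. The other groups used here were vermis from mice lacking ACSS2 (ACSS2 KO) and wild-type dorsal hippocampus, each 4 cPAE and 4 cPSE. Vermis and hippocampus libraries with the same genotype, exposure and replicate label were taken to come from the same mouse. All dams were injected, so the injections were shared by both exposures. The labels used here name no litter, cage or hour of death, so mice of 1 group may share a dam and p-values measure the spread between these animals.

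As background, the cerebellar cortex is dominated by excitatory granule neurons, which receive mossy fibres and feed the inhibitory Purkinje neurons, its output cells. The vermis is a known site of damage by developmental alcohol exposure. Metallothioneins are small cysteine-rich proteins that bind zinc and copper. In brain their main source is astrocytes, and their genes are induced by metals through the factor MTF-1 and by glucocorticoids through the glucocorticoid receptor. The Ras-ERK cascade carries growth factor and synaptic signals and induces its own brakes, among them the ERK phosphatase DUSP6 and the SPRED and Sprouty proteins. ACSS2 makes acetyl-CoA from acetate, a product of ethanol breakdown.

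The start regions of both metallothionein genes are shown first because the main results turn on these genes, which metals and glucocorticoids are known to induce. Sequence outside the windows was not searched. Both genes lie on chromosome 8. The windows are RefSeq sequences in build GRCm38.p6 on the plus strand, from 250 bases before to 50 bases after the annotated start. Capitals mark matches, on either strand, to the core of the metal response element (TGCACNC or TGCGCNC) or to a glucocorticoid response element (GNACA and TGTNC with any 3 bases between). Map3k6, which encodes a stress-activated kinase, is shown because it is a glucocorticoid-responsive gene described below whose window held a match; it was chosen after the search.
Mt2, chr8:94172368-94172667: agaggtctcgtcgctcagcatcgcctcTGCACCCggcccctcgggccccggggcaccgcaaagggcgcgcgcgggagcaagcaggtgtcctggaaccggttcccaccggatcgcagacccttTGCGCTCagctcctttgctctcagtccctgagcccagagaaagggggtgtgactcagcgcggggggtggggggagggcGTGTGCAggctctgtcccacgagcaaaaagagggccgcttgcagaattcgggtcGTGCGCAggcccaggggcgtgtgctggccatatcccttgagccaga
Mt1, chr8:94178839-94179138: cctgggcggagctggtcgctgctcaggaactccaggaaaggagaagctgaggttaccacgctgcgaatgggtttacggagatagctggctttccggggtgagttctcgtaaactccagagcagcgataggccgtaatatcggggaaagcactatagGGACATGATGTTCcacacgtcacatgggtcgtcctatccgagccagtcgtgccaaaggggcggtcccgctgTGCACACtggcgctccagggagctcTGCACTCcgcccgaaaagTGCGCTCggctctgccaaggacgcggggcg
Map3k6, chr4:133240568-133240867: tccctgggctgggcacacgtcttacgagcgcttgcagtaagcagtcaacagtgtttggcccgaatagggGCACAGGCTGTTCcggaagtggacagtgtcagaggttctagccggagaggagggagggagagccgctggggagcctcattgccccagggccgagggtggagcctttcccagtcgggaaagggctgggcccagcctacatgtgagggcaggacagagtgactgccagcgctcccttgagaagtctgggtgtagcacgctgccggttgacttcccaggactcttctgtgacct
The metal response core occurred 4 times in the Mt2 window, 3 times in the Mt1 window and 0 times in the Map3k6 window. Of 32851 such windows in the mouse table, 25.7% held at least 1 match, 1.97% held 3 or more and 0.517% held 4 or more. The glucocorticoid response element occurred 1 time in the Mt1 window, 1 time in the Map3k6 window and 0 times in the Mt2 window, and 0.475% of all windows held it. Among the other members searched, the glucocorticoid response element was in 1 of 6 Sgk1 windows and in 0 of 3 for Tsc22d3, 0 of 2 for Cdkn1a, 0 of 2 for Per1 and 0 of 1 for Klf9. The metal response core also occurred elsewhere: the window of Tet2, which was lower, held 3, that of Spred2 held 1, and those of Dusp6 and Frmd6 held 0. No match overlapped one of the other motif in the printed windows. These are matches of letters, and no binding was measured.

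The libraries matched the labelled tissue. Levels are in CPM, read counts scaled to the total of each library. The mean log2 CPM of 18 Purkinje neuron markers lay between 8.35 and 8.68 in wild-type vermis and between 3.73 and 5.70 in hippocampus. Total counts ran from 46391038 to 73803508 in the 8 wild-type vermis libraries. In the cPSE female F1, ribosomal RNA made up 6.02% of counts (95% Wilson interval 6.01% to 6.02%, counting error only), against 0.592% to 0.661% in the other 7. This female also held 1.34 CPM of 4 Y-linked genes, 0.709% of the mean of the cPSE males, against at most 0.141 CPM in the other vermis females. The cPAE male M1 stood apart in another way. Its 14 measured markers of cerebellar nuclei and brainstem neurons averaged -1.004 log2 CPM, against 1.48 to 3.00 in the other 7.

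A single gene passed the test across the transcriptome. Mt2, which encodes metallothionein-2, rose 1.59-fold in cPAE vermis. Of 22441 genes tested, 1 had a Benjamini-Hochberg adjusted p under 0.05 (0.00446%) in edgeR's quasi-likelihood test. Without an adjustment, 552 genes were higher in cPAE at p under 0.05 (2.46% of those tested) and 642 were lower (2.86%). The median log2 fold change of all tested genes was -0.01, with quartiles of -0.15 and 0.08. It was positive for 10345 genes and negative for 12096, the background for the sign counts of lists below. Members of a list can vary together, so such counts are not independent observations. DESeq2 on the same libraries called 17 genes.

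**Figure D1:**
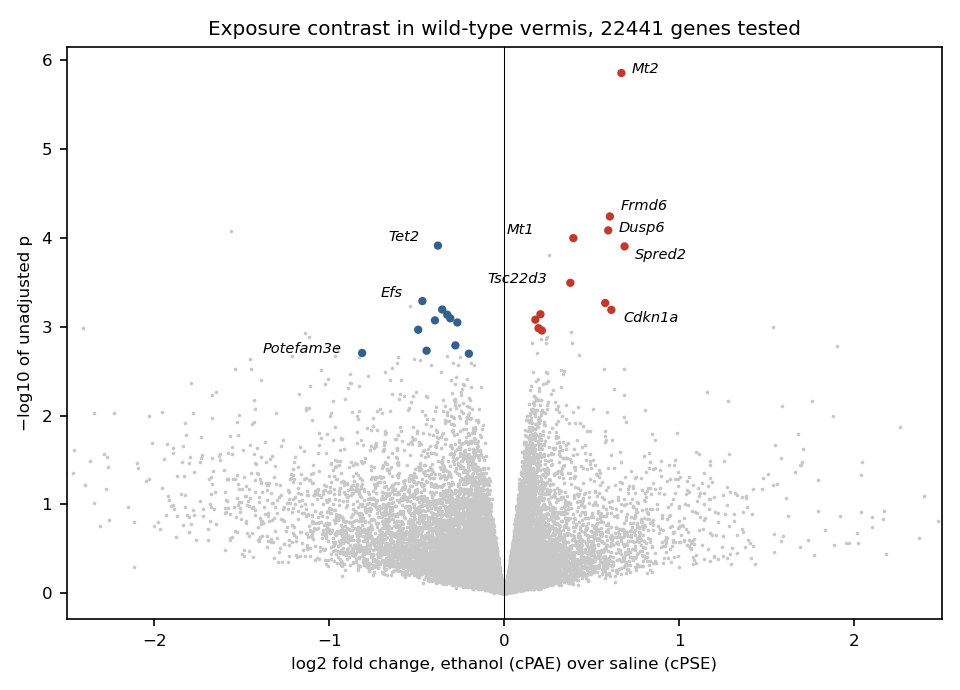
Each point is a tested gene, with the log2 fold change (cPAE over cPSE, wild-type vermis) on the horizontal axis, limited to ±2.5, and −log10 of the unadjusted p on the vertical axis. Coloured points are the 12 higher (red) and 12 lower (blue) genes named by rule, and Mt2 has the smallest p at 1.39e-06.

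Mt2 had 141, 112, 123 and 118 CPM in cPAE F1, F3, M1 and M3, against 76.6, 84.8, 80.96 and 68.7 CPM in cPSE F1, F3, M1 and M3. Every cPAE library was above every cPSE library. The means were 124 ± 12.2 CPM in cPAE and 77.8 ± 6.91 CPM in cPSE (SD, n = 4 each), a log2 fold change of 0.67 ± 0.09 (SE) with an adjusted p of 0.0312 in edgeR. Leaving out 1 library in turn gave log2 fold changes from 0.64 to 0.74, but the call was less steady. The adjusted p in edgeR stayed under 0.05 without cPAE F3 (0.00837) or cPSE M1 (0.0339). It was 0.177, 0.209 and 0.172 without cPAE F1, M1 or M3, and 0.192, 0.108 and 0.200 without cPSE F1, F3 or M3.

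Mt1, the closely related gene for metallothionein-1, had 183, 151, 155 and 151 CPM in cPAE F1, F3, M1 and M3, against 116, 126, 125 and 119 CPM in cPSE F1, F3, M1 and M3. The groups did not overlap here either. Its log2 fold change was 0.39 ± 0.07, with an adjusted p of 0.399 in edgeR, so it did not pass over all genes in the main fit. Mt3, the brain form of the family, had a log2 fold change of 0.02 ± 0.09 with overlapping groups. Among 20 measured metallothionein and zinc-handling genes, a list drawn up after the values were seen, 3 were higher at an unadjusted p under 0.05 (Mt2, Mt1 and the zinc importer Slc39a1) and 0 were lower, with a median of 0.03. The zinc exporter gene Slc30a1, another MTF-1 target, had -0.07 ± 0.09. Mtf1 itself had 41.6 to 41.96 CPM in cPAE and 36.7 to 40.6 CPM in cPSE, a log2 fold change of 0.11 ± 0.08.

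**Figure D2:**
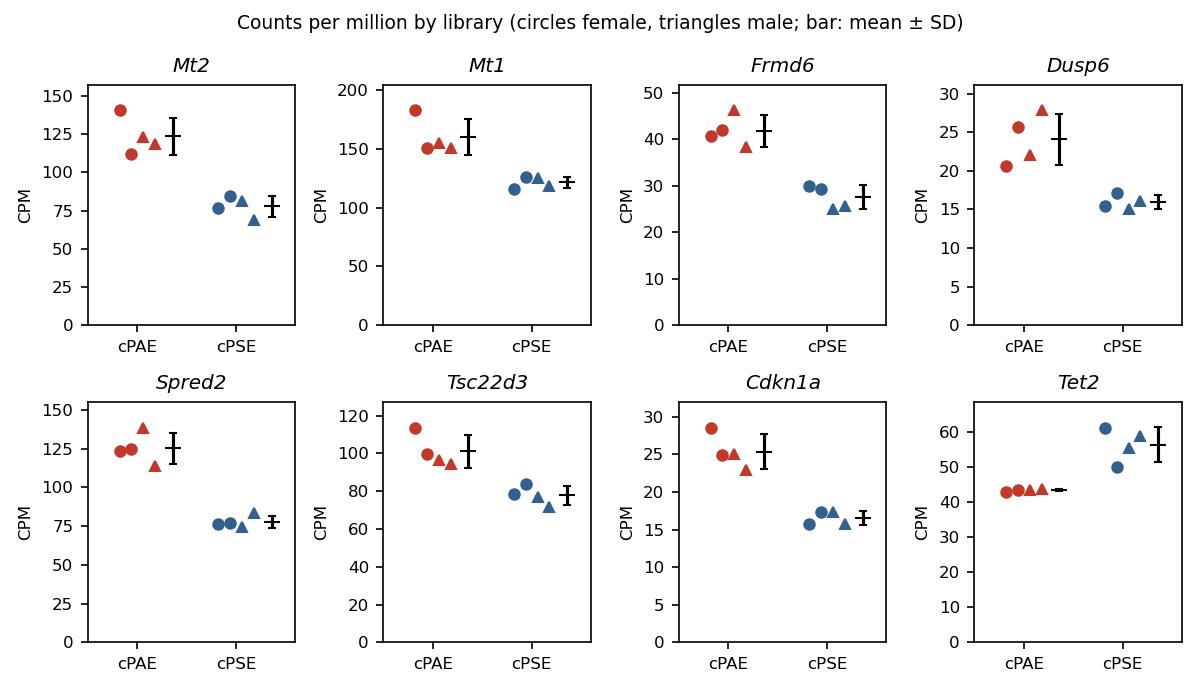
CPM (vertical axis) in each wild-type vermis library for 8 genes, cPAE left of cPSE; circles are females, triangles are males, and bars give the mean ± SD of 4 libraries. The plot shows single libraries rather than means alone: Mt2 averaged 124 CPM in cPAE and 77.8 CPM in cPSE.

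The genes next in rank were named by a rule of smallest p at a mean of at least 1 CPM, 12 higher and 12 lower, whether or not they passed. Apart from Mt2 none of these 24 passed over all genes in the main edgeR fit, and their values are descriptions. Some passed in alternatives. In edgeR on the wild-type libraries alone, Spred2 (adjusted p = 0.00983), Frmd6 (0.0258) and Cdkn1a (0.0258) passed. In edgeR with no filter, Dusp6, Mt1 and Frmd6 passed. Those passing in DESeq2 included Frmd6, Serinc3, Spred2, Dusp6, Mt1, Tet2, Tsc22d3, Nostrin, Efs and Cdkn1a. With no sex term or with a replicate block, no gene passed in edgeR. All 24 had groups that did not overlap, which the rule favours. Over all tested genes, 2.48% had every cPAE library above every cPSE library and 2.41% had every cPAE library below.

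Brakes on ERK signalling were among the genes higher in cPAE. Dusp6, the cytoplasmic ERK phosphatase, had 20.7, 25.7, 22.1 and 27.9 CPM in cPAE F1, F3, M1 and M3, against 15.4, 17.2, 15.1 and 16.1 CPM in cPSE F1, F3, M1 and M3. Its log2 fold change was 0.59 ± 0.11, with an adjusted p of 0.399 in edgeR. Spred2, an inhibitor of Ras-ERK signalling, had 124, 125, 139 and 114 CPM in cPAE F1, F3, M1 and M3, against 76.4, 77.2, 74.2 and 83.5 CPM in cPSE F1, F3, M1 and M3. The gap between the nearest libraries of the groups was wider than the range within cPSE, and the log2 fold change was 0.69 ± 0.13 (adjusted p = 0.399 in edgeR). Its relative Spred1 had 0.32 ± 0.10, and Etv5, an ETS transcription factor induced by ERK, had 0.38 ± 0.10; the groups overlapped for neither. Among 17 measured ERK feedback genes, a list also drawn up after the values were seen, 5 were higher at an unadjusted p under 0.05, 0 were lower, 14 had a positive log2 fold change and the median was 0.15. The Sprouty genes had overlapping groups, with 0.36 ± 0.19 for Spry4, 0.05 ± 0.08 for Spry2 and -0.11 ± 0.11 for Spry1.

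Frmd6, which encodes a FERM-domain protein, had 40.6, 42.04, 46.2 and 38.2 CPM in cPAE F1, F3, M1 and M3, against 30.00, 29.3, 25.1 and 25.7 CPM in cPSE F1, F3, M1 and M3. The groups were apart, with a log2 fold change of 0.60 ± 0.11 (adjusted p = 0.399 in edgeR). Cdkn1a, the cell cycle inhibitor p21, averaged 25.4 ± 2.35 CPM in cPAE and 16.6 ± 0.916 CPM in cPSE (SD, n = 4 each), a log2 fold change of 0.61 ± 0.14. Nostrin, which encodes a protein that traffics endothelial nitric oxide synthase, had 0.58 ± 0.13. The others on the higher side differed less. Tsc22d3, the glucocorticoid-induced leucine zipper GILZ, had 0.38 ± 0.08, p120 catenin (Ctnnd1) had 0.20 ± 0.05, Zswim4 had 0.21 ± 0.05 and Serinc3 had 0.18 ± 0.04.

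On the lower side the first gene was Tet2, an enzyme that oxidises 5-methylcytosine, a step toward DNA demethylation. It had 42.8, 43.4, 43.4 and 43.6 CPM in cPAE F1, F3, M1 and M3, against 61.2, 49.8, 55.4 and 58.9 CPM in cPSE F1, F3, M1 and M3. The cPAE libraries lay close together and all below the lowest cPSE library. The log2 fold change was -0.38 ± 0.07, with an adjusted p of 0.399 in edgeR. Efs, an adaptor of Src-family kinases, averaged 6.81 ± 0.294 CPM in cPAE and 9.43 ± 0.571 CPM in cPSE (SD, n = 4 each), a log2 fold change of -0.47 ± 0.11. Adamts1, a secreted metalloprotease, had -0.44 ± 0.12, and the tight-junction gene Cgn (cingulin) had -0.40 ± 0.09. The rest were the zinc-finger genes Zfp810 (-0.35 ± 0.08), Zfp930 (-0.28 ± 0.07) and Zkscan2 (-0.31 ± 0.07), Aasdh (-0.33 ± 0.08), the cilium genes Cfap96 (-0.49 ± 0.12) and Rpgr (-0.27 ± 0.06), the Golgi protein gene Golgb1 (-0.20 ± 0.05) and Potefam3e (-0.81 ± 0.22). Zfp810 and Zfp930 belong to a large family of similar genes and Potefam3e to a family of copies, so their counts are less certain. Acss2 itself averaged 61.03 ± 4.96 CPM in cPAE and 61.9 ± 5.27 CPM in cPSE (SD, n = 4 each), a log2 fold change of -0.02 ± 0.15.

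Glucocorticoid-responsive genes had a median log2 fold change of 0.39, against -0.01 for all genes. Of the list's 20 members 1 passed over all genes in edgeR (Mt2), 12 were higher at an unadjusted p under 0.05, 1 was lower, and 17 had a positive log2 fold change. These are genes that corticosterone induces in many tissues; the list was chosen with earlier results of the series known. The mean over the list was 4.90, 4.597, 4.67 and 4.62 log2 CPM in cPAE F1, F3, M1 and M3, against 4.29, 4.48, 4.30 and 4.27 log2 CPM in cPSE F1, F3, M1 and M3. All cPAE libraries were above all cPSE libraries, and cPSE F3 was the nearest to them. Over 16 alternatives the median stayed between 0.31 and 0.42. Without the cPSE female F1 and the cPAE male M1 together, a setting chosen after seeing the data, 9 members were higher at that p and the median was 0.36.

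Within the list, Tsc22d3 had 114, 99.6, 96.5 and 94.3 CPM in cPAE F1, F3, M1 and M3, against 78.5, 83.7, 77.03 and 71.7 CPM in cPSE F1, F3, M1 and M3. The kinase gene Sgk1, which regulates ion channels, had 87.7, 69.4, 53.7 and 63.4 CPM in cPAE F1, F3, M1 and M3, against 62.8, 56.9, 44.5 and 44.5 CPM in cPSE F1, F3, M1 and M3. Tsc22d3 separated the groups, whereas Sgk1 was higher in females than in males of its own group and its groups overlapped. Map3k6 had 2.24 to 2.89 CPM in cPAE and 1.44 to 1.68 CPM in cPSE, a log2 fold change of 0.68 ± 0.19. Hif3a, a hypoxia-inducible factor subunit, had 8.45 to 13.02 CPM in cPAE and 4.73 to 6.75 CPM in cPSE, a log2 fold change of 0.86 ± 0.32. Neither gene had overlapping groups. The transcription factor gene Klf9 had 291 to 308 CPM in cPAE and 243 to 259 CPM in cPSE, with 0.25 ± 0.08, and the sulfotransferase gene Sult1a1 had 0.69 ± 0.24. Sgk1 (0.39 ± 0.13), Nfkbia (0.21 ± 0.08), Errfi1 (0.15 ± 0.06) and Per1 (0.34 ± 0.15) were also higher at that p. Fkbp5, a feedback co-chaperone of the glucocorticoid receptor, did not separate the groups, with 10.3 to 15.1 CPM in cPAE and 8.88 to 12.01 CPM in cPSE and a log2 fold change of 0.29 ± 0.29. The receptor gene Nr3c1 had 0.00 ± 0.10, and the mineralocorticoid receptor gene Nr3c2 had -0.26 ± 0.13. Among 6 measured corticosteroid receptor and regulator genes, a list drawn up after the values were seen, 5 had a positive log2 fold change. Their median was 0.08, and 0 had an unadjusted p under 0.05.

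Of the 3 members with a negative log2 fold change, Pdk4 (-0.12 ± 0.14) and Ddit4 (-0.05 ± 0.07) had an unadjusted p over 0.05. The third was Dusp1, a phosphatase that stress and neuronal activity induce rapidly. Dusp1 had 35.9, 27.1, 27.6 and 19.1 CPM in cPAE F1, F3, M1 and M3, against 47.9, 39.99, 43.4 and 51.8 CPM in cPSE F1, F3, M1 and M3. The cPAE libraries were all lower, with a log2 fold change of -0.76 ± 0.27 (unadjusted p = 0.0144 and adjusted p = 0.904 in edgeR). It also belonged to the activity-regulated genes, of which 7 of 40 were higher and 3 lower at an unadjusted p under 0.05, with a median of 0.10. The immediate-early gene Fos had 8.37 to 15.99 CPM in cPAE and 20.8 to 25.7 CPM in cPSE, with -0.93 ± 0.34, and Npas4 had 1.51 to 2.31 CPM in cPAE and 2.801 to 3.67 CPM in cPSE, with -0.73 ± 0.26. Both were lower in every cPAE library. The neurotrophin gene Bdnf had 24.4 to 27.5 CPM in cPAE and 17.8 to 24.2 CPM in cPSE, a log2 fold change of 0.34 ± 0.10. Homer1, a postsynaptic scaffold gene, had 49.9 to 77.1 CPM in cPAE and 46.1 to 49.5 CPM in cPSE, with 0.33 ± 0.13. Dusp6, Per1, Jund, Klf2 and Klf4 were the other members higher at that p.

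Of the clock genes, 3 of 20 were higher and 0 lower at an unadjusted p under 0.05, with a median of 0.09. Per2, a repressor in the clock, had 43.96, 44.3, 45.2 and 40.05 CPM in cPAE F1, F3, M1 and M3, against 26.2, 30.7, 29.8 and 27.3 CPM in cPSE F1, F3, M1 and M3. Its groups did not overlap, and the log2 fold change of 0.61 ± 0.25 had an unadjusted p of 0.0275 and an adjusted p of 0.904 in edgeR over all 16 vermis libraries. In a fit of the 8 wild-type libraries alone its adjusted p in edgeR was 0.0229. The clock output gene Dbp had 101.5 to 111 CPM in cPAE and 101.2 to 112 CPM in cPSE (0.01 ± 0.06), and Nr1d1, which encodes REV-ERB alpha, had 0.01 ± 0.10; both had overlapping groups.

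**Figure D3:**
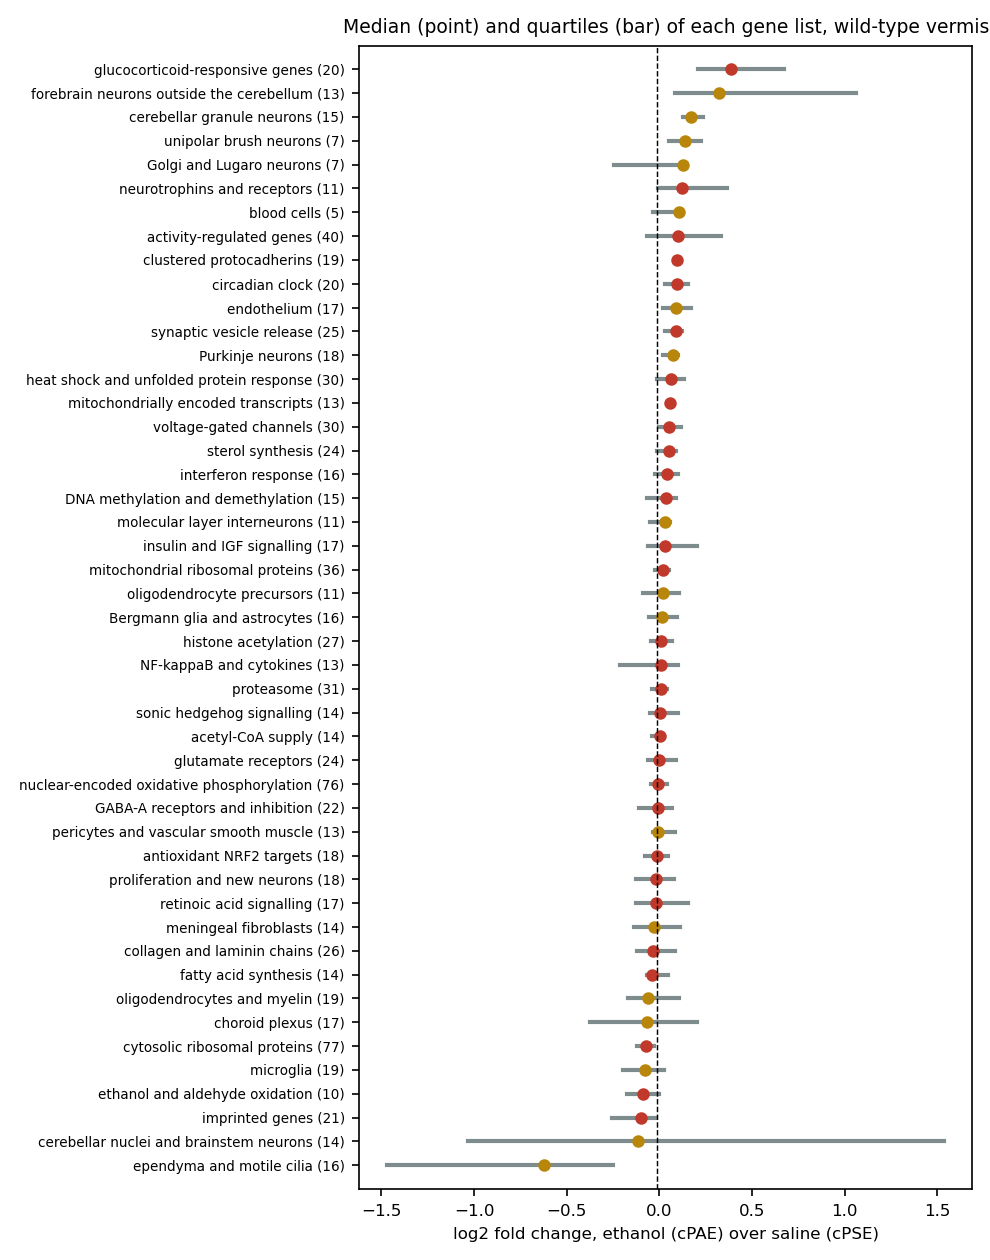
Median log2 fold change (cPAE over cPSE, wild-type vermis; points) and quartiles (bars) of the members tested in each list, with pathway lists in red and cell type lists in gold; the dashed line is the median of all genes. Glucocorticoid-responsive genes have a median of 0.39 and ependymal genes -0.62.

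The other pathway lists were closer to the median of all genes. Cytosolic ribosomal protein genes had 66 of 77 members with a negative log2 fold change and a median of -0.07; 0 were higher and 6 lower at an unadjusted p under 0.05. Rpl35a had 25.4 to 28.2 CPM in cPAE and 28.5 to 34.7 CPM in cPSE, a log2 fold change of -0.20 ± 0.07; processed pseudogenes can take reads from such genes. Of the insulin and IGF signalling genes, 3 of 17 were higher and 0 lower at an unadjusted p under 0.05, namely the transcription factor gene Foxo1 (0.24 ± 0.08), the binding protein gene Igfbp3 (0.35 ± 0.14) and the kinase subunit gene Pik3r1 (0.20 ± 0.08). Of the DNA methylation and demethylation genes, 0 of 15 were higher and 2 lower at an unadjusted p under 0.05, namely Tet2 and the DNA damage gene Gadd45a (-0.31 ± 0.09). Of the clustered protocadherins, adhesion proteins of neurons, 4 of 19 were higher and 0 lower at an unadjusted p under 0.05. Those were Pcdha1, Pcdha2, Pcdha4 and Pcdha6, which share constant exons and had nearly equal CPM, so they may stand for 1 measurement.

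Genes of acetate and ethanol handling differed little. Of the acetyl-CoA supply genes, 2 of 14 were higher and 0 lower at an unadjusted p under 0.05 (Dlat, 0.11 ± 0.05, and Aacs, 0.18 ± 0.08), with a median of 0.00. Of the ethanol and aldehyde oxidation genes, 0 of 10 were higher and 1 lower at an unadjusted p under 0.05 (Aldh9a1, -0.18 ± 0.07). In the lists of GABA-A receptors, glutamate receptors and voltage-gated channels no member had an unadjusted p under 0.05. Imprinted genes had 18 of 21 members with a negative log2 fold change and a median of -0.10, with 0 at that p. Synaptic vesicle release genes had 21 of 25 positive and a median of 0.09, also with 0.

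Markers of the cell types in the tissue were also counted. In bulk tissue, fewer cells of a type and less RNA per cell cannot be told apart. Granule neuron markers were positive for 14 of 15, against 10345 of 22441 tested genes. Their median was 0.17, and 0 had an unadjusted p under 0.05. Their mean was 8.37 to 8.76 log2 CPM in cPAE and 8.32 to 8.45 in cPSE. Purkinje neuron markers had 15 of 18 positive, a median of 0.07 and 0 at that p. Bergmann glia and astrocytes, a main source of metallothioneins, had 8 of 16 positive, a median of 0.01 and 0 at that p, with means of 6.59 to 6.92 log2 CPM in cPAE and 6.67 to 6.88 in cPSE. Of the endothelial markers, 2 of 17 were higher and 0 lower at an unadjusted p under 0.05, among them the glucose transporter gene Slc2a1 with 96.5 to 119 CPM in cPAE and 72.7 to 93.04 CPM in cPSE (0.43 ± 0.11). Of the microglial markers, 0 of 19 were higher and 1 lower at an unadjusted p under 0.05 (Siglech, -0.42 ± 0.17).

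Markers of cells outside the cerebellar cortex varied from library to library. Ependymal and motile cilium genes had a median of -0.62, and 0 of 16 were higher and 3 lower at an unadjusted p under 0.05. Their mean was -1.07 to -0.59 log2 CPM in cPAE and -0.96 to 1.39 in cPSE, and the highest value was that of cPSE F3. Without cPSE F3 the median was 0.06. Forebrain neuron genes had a mean of -0.60 to 2.77 log2 CPM in cPAE and 0.22 to 1.93 in cPSE. Hoxb5, a hindbrain and spinal cord gene, had 8.36, 0.511, 0.0348 and 6.08 CPM in cPAE F1, F3, M1 and M3 and at most 0.140 CPM in cPSE. Mt2 was 123 CPM in cPAE M1, the library with the least brainstem marker RNA. The part of these markers in the other results was not tested.

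In vermis without ACSS2 the same genes had mostly the opposite sign. The KO values were not part of the contrast that chose the 24 genes, though all 16 libraries share 1 estimate of spread; 12 of the 12 higher genes had a negative log2 fold change there, and 11 of the 12 lower genes a positive one. Among genes of at least 1 CPM with an unadjusted p under 0.05 in wild type, the sign was opposite in KO for 72.7% of those higher. It was opposite for 57.99% of those lower, close to the 56.71% of all tested genes of at least 1 CPM. Mt2 had 89.7, 86.3, 71.4 and 82.5 CPM in KO cPAE F1, F3, M1 and M3, against 137, 125, 99.6 and 121 CPM in KO cPSE F1, F3, M1 and M3. That was a log2 fold change of -0.55 ± 0.09 with an adjusted p of 0.0338 in edgeR, so Mt2 fell with exposure in KO vermis, where 20 genes (0.0891%) passed. The KO groups did not overlap each other, and the KO cPSE range overlapped that of wild-type cPAE.

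The difference between the genotypes was tested in the same edgeR fit. The exposure effect, wild type minus KO, passed for 24 genes (0.107%), 21 positive and 3 negative, and 2524 genes (11.2%) had an unadjusted p under 0.05. For Mt2 the difference was 1.21 (adjusted p = 0.000681 in edgeR) and for Frmd6 1.37 (0.00191). Dusp6 (1.00), Spred2 (1.18), Tsc22d3 (0.68), Mt1 (0.61) and Adamts1 (-1.01) also passed. These 7 are among the named genes, which were chosen on the wild-type values of this difference. Of the glucocorticoid-responsive genes 7 passed, the metallothionein genes and Tsc22d3 with Map3k6 (2.00), Per1 (1.40), Sgk1 (1.22) and Nfkbia (0.70). Dbp had 0.01 ± 0.06 in wild type and -0.89 ± 0.06 in KO, a difference of 0.90 (adjusted p = 0.000681 in edgeR). Of the 20 clock genes 3 passed, namely Dbp, Per1 and Ciart (0.83).

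The count of 24 was sensitive to single libraries. It was 6, 14 and 9 without wild-type cPAE F1, F3 or M1. It was 8, 10, 3 and 4 without wild-type cPSE F1, F3, M1 or M3. The Mt2 and Frmd6 differences passed in each of 12 alternatives, with an adjusted p of at most 0.00950 in edgeR. None of these alternatives left out a KO library, so dependence on single KO libraries was not tested. KO cPAE F3 had only 23085928 counts, against 41178611 to 72115690 in the other KO vermis libraries. Of the other 5 differences followed through the same alternatives, Mt1 lost its call in 8 (adjusted p up to 0.103 in edgeR), Per1 in 5, Dusp6 in 4, Sgk1 in 4 and Map3k6 in 2, each with the same sign throughout.

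**Figure D4:**
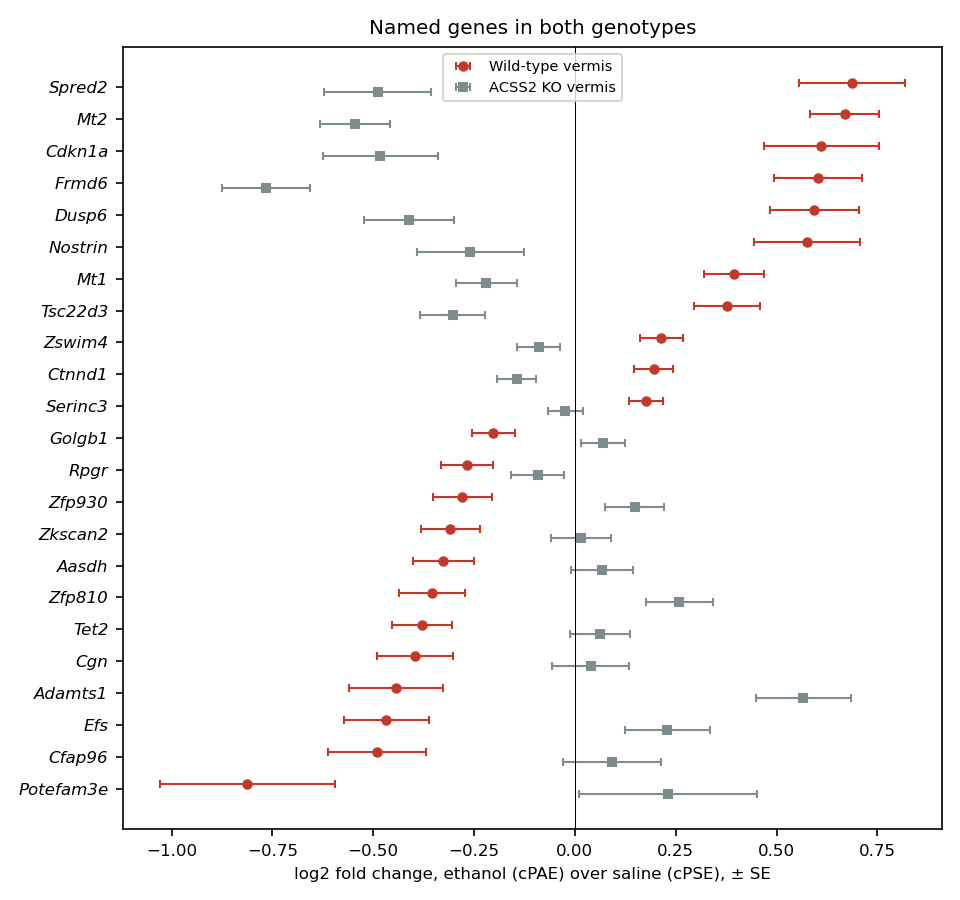
Log2 fold change (cPAE over cPSE, ± SE) of named genes in wild-type vermis (red circles) and ACSS2 KO vermis (grey squares). Every higher gene drawn has a negative value in KO vermis, and Rpgr is the lower gene with the same sign in both.

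In KO vermis 7.67% of all genes were higher and 5.66% lower at an unadjusted p under 0.05, larger shares than in wild type. Glucocorticoid-responsive genes had a median of -0.36, with 0 higher and 13 lower at an unadjusted p under 0.05, and a list mean of 3.87 to 4.31 log2 CPM in KO cPAE and 4.46 to 4.72 in KO cPSE. ERK feedback genes had a median of -0.13, with 2 higher and 7 lower. The 20 clock genes had a median of -0.21, with 0 higher and 10 lower. Marker RNA of other cells also differed between the KO groups. Oligodendrocyte genes had a median of 0.57, with 11 of 19 higher, and cerebellar nuclei and brainstem genes had a median of 1.80. Granule neuron genes were negative for 14 of 15 (median -0.33) and Purkinje neuron genes for 18 of 18 (median -0.35). Brainstem list means were -0.30 to 4.67 log2 CPM in KO cPAE and 0.16 to 2.05 in KO cPSE. Granule means were 7.18 to 8.64 and 8.36 to 8.57, so the KO groups overlapped for both lists. The part of these markers in the difference between genotypes was not tested.

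In dorsal hippocampus of the same mice, glucocorticoid-responsive genes had a median of 0.22, with 8 higher and 0 lower at an unadjusted p under 0.05 in a separate edgeR fit. Of all hippocampal genes, 4.87% were higher and 5.63% lower at that p. In that fit 0 of 23394 genes had an adjusted p under 0.05, so the hippocampal values below are descriptions. By their labels the tissues were taken to come from the same animals, so they are not independent samples. Tsc22d3 had 67.3, 60.6, 59.8 and 65.3 CPM in cPAE F1, F3, M1 and M3, against 52.5, 51.6, 45.7 and 49.3 CPM in cPSE F1, F3, M1 and M3. Its groups were apart in hippocampus as in vermis, with a hippocampal log2 fold change of 0.35 ± 0.09. Map3k6 had 1.29 ± 0.24 and Hif3a had 0.78 ± 0.22 there. Mt2 did not separate the groups in hippocampus. It had 70.6, 67.7, 75.9 and 79.02 CPM in cPAE F1, F3, M1 and M3, against 64.4, 71.2, 66.9 and 74.4 CPM in cPSE F1, F3, M1 and M3, a log2 fold change of 0.08 ± 0.14. Dusp6 had -0.12 ± 0.12 and Tet2 had 0.19 ± 0.09. Of the 12 named higher genes, 11 had the same sign in hippocampus as in vermis, with Dusp6 the exception. Of the 12 named lower genes, 5 had the same sign. The sign was the same for 55.96% of all genes tested in both tissues. It was the same for 66.72% of those with an unadjusted p under 0.05 in wild-type vermis.

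The difference between the tissues, vermis minus hippocampus, passed for 0 of 24458 genes (0%), and 4.98% had an unadjusted p under 0.05. For Mt2 it was 0.59 (unadjusted p = 0.000231), for Dusp6 0.71 (unadjusted p = 0.000514), for Spred2 0.52 (unadjusted p = 0.00158), for Tet2 -0.58 (unadjusted p = 0.000538) and for Tsc22d3 0.03 (unadjusted p = 0.788). None of these passed over all genes. They are named genes, chosen on the vermis values that enter this difference, and that choice favours small unadjusted p-values.

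**Figure D5:**
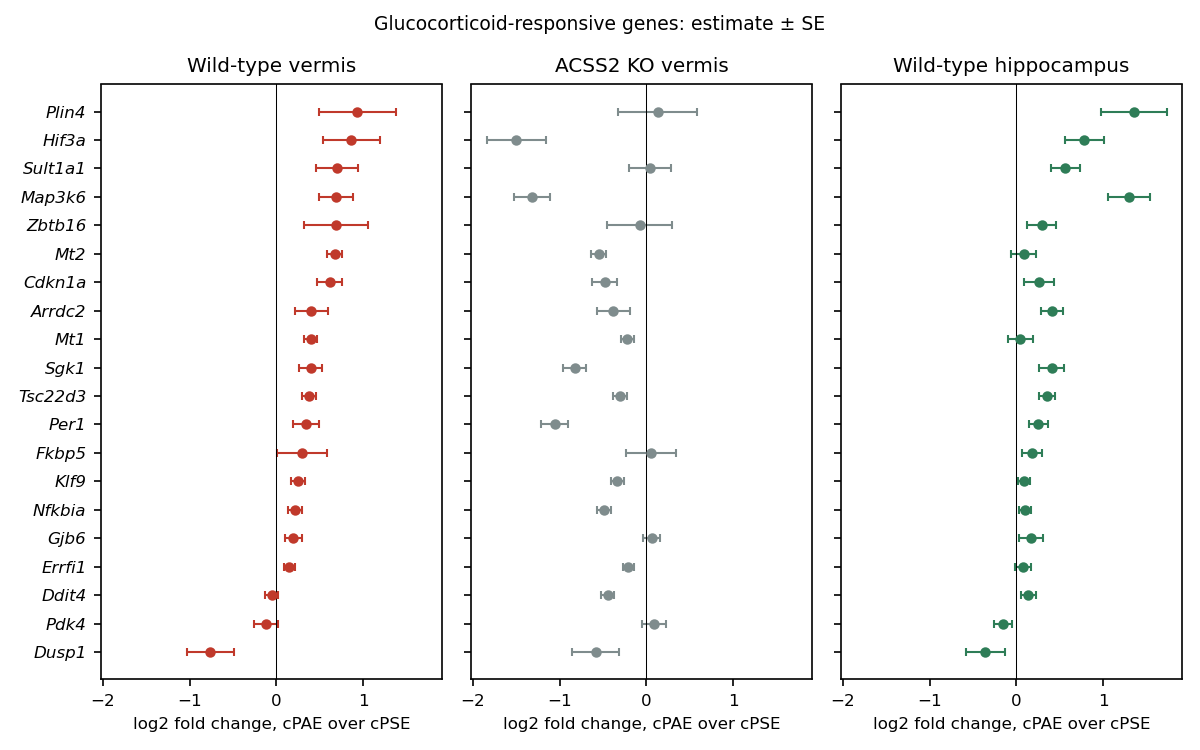
Log2 fold change (cPAE over cPSE, ± SE) of the 20 glucocorticoid-responsive genes in wild-type vermis, ACSS2 KO vermis and wild-type hippocampus. The list medians are 0.39 in wild-type vermis, -0.36 in KO vermis and 0.22 in hippocampus.

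Females and males were compared within wild-type vermis. The exposure effect, female minus male, passed for 0 of 22441 genes (0%), with 397 (1.77%) at an unadjusted p under 0.05. Each group held 2 animals of each sex. Mt2 had a log2 fold change of 0.65 in females and 0.69 in males. Spred2 had 0.69 in females and 0.68 in males, and Tet2 had -0.36 in females and -0.39 in males. All 24 named genes had the same sign in both sexes, which follows from groups that do not overlap. For the difference 0 of them had an unadjusted p under 0.05, and a choice by smallest p disfavours such a difference. Neither count is a test of agreement between the sexes.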

How the data were processed

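Gene counts were the values used. Per the submitters' processing notes, tools named for the authors' work include featureCounts 2.0.6 for counting, STAR 2.7.10a for alignment and cutadapt 5.0 for trimming, with the mouse build GRCm39; the strand setting and annotation release are not given in the sources used here. The deposited whole-number counts per gene were used as deposited. Without a known strand setting, overlapping and antisense genes are uncertain. Total counts ran from 46391038 to 73803508 per wild-type vermis library, and intervals cover counting error only. Among low counts, those up to 20, 86.32% to 91.6% were even numbers in each vermis library. Single counts may therefore not be independent, and the intervals may be too narrow. The reason for the even counts was not tested.

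Counts were scaled by TMM after edgeR's expression filter and tested with edgeR 4.0.16 (R 4.3.3; quasi-likelihood, robust) over all 16 vermis libraries, with a term for sex; p-values were adjusted by Benjamini-Hochberg over 22441 genes. Standard errors are the log2 fold change over the root of F. The comparison of tissues used the same edgeR test on all 32 libraries with a term for each mouse, and hippocampus alone was fitted separately. The method was tested on simulated data. Named genes were the 12 higher and 12 lower genes of smallest p at a mean of at least 1 CPM, with Acss2; 1 of them is not reported here. The groups, genes and 49 lists were chosen with earlier results of these data known; 3 further lists were added after seeing the values. Alternatives were DESeq2 1.42.0, RLE scaling, no filter, no sex term, a replicate block, the 8 wild-type libraries alone, ribosomal RNA rows removed and leaving out libraries. Promoter motifs were searched with Python 3.11.15 and figures drawn with matplotlib 3.10.9.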

Additional observations from a re-analysis of the deposited data

Results flagged for a closer look

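In 12 of 178 groups of 4 libraries, 1 library lay far from the other 3; chance gives about 1 in 20 such groups. In cPAE these were F1 for Mt1 (183.1 CPM), Arrdc2 (15.43 CPM) and oligodendrocyte genes (mean 6.61 log2 CPM), F3 for Zbtb16 (11.09 CPM), M3 for pericyte genes (3.307 log2 CPM) and M1 for heat shock genes (6.161 log2 CPM). In cPSE they were F1 for ribosomal RNA (6.017% of counts), Ddit4 (55.16 CPM) and mitochondrially encoded transcripts (10.74 log2 CPM), M1 for Zfp930 (16.32 CPM), and F3 for ependymal genes (1.392 log2 CPM) and glucocorticoid-responsive genes (4.483 log2 CPM).

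The exposure effect differed between wild-type and KO vermis, with an adjusted p under 0.05 in edgeR, for 7 named genes. The differences in log2 fold change, wild type minus KO, were 1.2149 for Mt2, 1.3698 for Frmd6, 1.0043 for Dusp6, 0.6141 for Mt1, 1.1762 for Spred2, 0.68012 for Tsc22d3 and -1.0102 for Adamts1.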

How the results depend on the processing

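The exposure comparison in wild-type vermis called 1 gene in edgeR. The count was 17 with DESeq2, 4 with no filter, 5 with the 8 wild-type libraries alone, 0 with no sex term, 0 without both cPSE F1 and cPAE M1, and 0 to 1 when 1 library was left out. The cause of these differences was not tested. The difference between genotypes, 24 genes, was 53 with no filter and 3 to 30 when 1 wild-type library was left out. Same-numbered libraries of the groups had correlated deviations over 0.1 in 2 of 4 pairs, so the numbers were not taken to pair the mice; with a replicate block the counts were 0 for exposure and 6 for the difference between genotypes. RLE scaling and removal of ribosomal RNA rows kept every count within 1.5 times. The comparisons of tissues and of sexes called 0 genes in each of 3 alternatives. Of 44 genes followed, 42 kept their direction in every alternative. The log2 fold change of Acss2 (-0.02) ran from -0.05346 to 0.02222 when 1 library was left out, positive without cPAE F3 (0.01266) or cPSE F1, and was 0.02189 without both cPSE F1 and cPAE M1. That of Ddit4 (-0.05) ran from -0.1072 to 0.03467, positive without cPSE F1, and was 0.05827 without both. Of 51 list medians, 20 kept their sign in every alternative, the glucocorticoid-responsive genes among them.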
